A study of Rattus norvegicus with 16 samples.

Results

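A set of 8 genes best known from striated muscle was followed through rat glomeruli: Synpo2l, Myom2, Myoz1, Actn3, Ryr1, Casq1, Pygm and Eno3. They are 8 of the 13222 genes with a row in the expression table, and they were chosen by name, either because they were higher in injured than in healthy glomeruli or because they are skeletal muscle genes with a row. The contrast between injury and control therefore picked most of them, and their levels in the 4 groups are given as a description without a test. Every member had a row. Synpo2l, Myom2, Myoz1, Pygm, Ryr1 and Eno3 were higher in all 4 injured rats without a drug than in all controls, whereas Casq1 and Actn3 overlapped between these groups, so "induced by injury" describes 6 of the 8.

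The study measured polyadenylated RNA by paired-end sequencing in glomeruli, the filtering units of the kidney, isolated by sieving on day 11 from male Wistar rats of about 175 g. Of the 16 libraries, 4 came from healthy controls, and 12 from rats given puromycin aminonucleoside (PAN) intravenously, a podocyte toxin that causes nephrotic syndrome with heavy proteinuria. The 12 comprised 4 rats without a drug (PAN), 4 that also received pioglitazone and 4 that also received GQ-16, both agonists of the nuclear receptor PPAR gamma given daily by gavage. A sham vehicle was part of the treatment scheme; doses, and whether healthy controls received vehicle, are not given in the sources used here. The labels describe rats and not repeat libraries, but nothing else shows the libraries to be separate animals, and p-values measure the spread between these libraries.

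In striated muscle, repeating sarcomeres are anchored at Z-discs and cross-linked at the M-band, and calcium released from the sarcoplasmic reticulum starts contraction. Muscle also stores glycogen and breaks it down to feed glycolysis. Podocytes are not muscle cells, but their foot processes hold a contractile actin apparatus with synaptopodin and alpha-actinin-4, relatives of 2 of the proteins studied here.

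Totals per library ranged from 13351137 to 21977663 reads over the listed genes, and levels are given as counts per 1000000 reads of these (CPM). Every gene in the table reached 2 CPM in at least 8 of the 16 libraries. Synpo2l did so in all 12 PAN-injected rats but in 1 of 4 controls, and Myom2 and Myoz1 in 2 of 4 controls, so such genes are listed through the groups in which they are high. The share of mitochondrially encoded RNA was 13.9 to 39.6% in control, 5.98 to 10.8% in PAN, 8.77 to 19.4% with pioglitazone and 6.76 to 31.4% with GQ-16. Sample titles carry numbers of unstated meaning: those of 25 or higher belong to 3 of 4 PAN libraries (replicates 1 to 3), to replicate 4 of pioglitazone, to replicate 4 of GQ-16 and to no control. The part of these features in the results was not tested, except through the covariate fits given below. Sums of the 11 podocyte markers were 2192 to 8954 CPM in control, 6971 to 10467 in PAN, 3985 to 11684 with pioglitazone and 4011 to 14031 with GQ-16. Fewer cells of a type and less RNA per cell cannot be told apart in bulk RNA.

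The sequences just upstream of 4 members are shown because Synpo2l and Myoz1 are neighbours on the chromosome and were both higher after PAN, Pygm had the second largest difference between PAN and control, and Casq1 is a muscle gene that was not higher. Each run holds 250 bases before and 50 after the annotated start, 5′ to 3′ on the gene's own strand, from RefSeq on GRCr8, a later build than the one named for the counts (Rnor_6.0). The windows are Synpo2l at chr15:3684760-3685059 (plus strand), Myoz1 at chr15:3693363-3693662 (plus strand), Pygm at chr1:213119555-213119854 (plus strand) and Casq1 at chr13:87212661-87212960 (minus strand). Runs of 6 capitals mark E-box letters (CANNTG), the motif read by myogenic helix-loop-helix factors among many others, and runs of 10 capitals mark a MEF2 motif.
Synpo2l: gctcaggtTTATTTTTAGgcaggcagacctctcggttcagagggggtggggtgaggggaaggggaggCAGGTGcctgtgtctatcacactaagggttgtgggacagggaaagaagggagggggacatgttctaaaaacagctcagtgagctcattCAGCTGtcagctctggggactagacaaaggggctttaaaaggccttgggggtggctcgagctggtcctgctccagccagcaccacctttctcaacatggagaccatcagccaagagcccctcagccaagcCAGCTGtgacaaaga
Myoz1: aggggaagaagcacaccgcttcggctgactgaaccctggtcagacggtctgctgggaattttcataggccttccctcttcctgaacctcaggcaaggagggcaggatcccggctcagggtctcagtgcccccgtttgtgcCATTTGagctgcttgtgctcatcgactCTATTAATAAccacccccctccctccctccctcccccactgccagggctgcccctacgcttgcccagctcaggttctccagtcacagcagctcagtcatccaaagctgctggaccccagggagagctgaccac
Pygm: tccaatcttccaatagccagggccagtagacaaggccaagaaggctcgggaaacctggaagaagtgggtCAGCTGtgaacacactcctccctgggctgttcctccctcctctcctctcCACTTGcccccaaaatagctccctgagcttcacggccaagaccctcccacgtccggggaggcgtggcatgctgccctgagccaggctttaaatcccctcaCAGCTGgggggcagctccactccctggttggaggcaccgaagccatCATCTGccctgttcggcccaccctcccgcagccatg
Casq1: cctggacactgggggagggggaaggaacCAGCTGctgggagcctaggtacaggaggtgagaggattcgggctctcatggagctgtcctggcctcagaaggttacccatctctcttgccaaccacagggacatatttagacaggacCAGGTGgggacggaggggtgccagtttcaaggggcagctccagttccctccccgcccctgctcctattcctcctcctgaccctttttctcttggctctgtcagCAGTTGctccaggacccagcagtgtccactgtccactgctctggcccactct

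A RefSeq promoter entry was found for 7 of the 8 members; Myom2 was the other one. On both strands, CANNTG occurred in 6 of the 7 promoters and in 72.1% of all 33469 promoters of this length. The narrower form CAGCTG, which is itself a CANNTG match, occurred in 4 of 7 (Synpo2l, Pygm, Eno3 and Casq1) and in 15.1% of all. A MEF2 motif occurred in 2 of 7, the adjacent Synpo2l and Myoz1, and in 3.29% of all. The M-CAT letters CATTCC occurred in 1 of 7 (Eno3) and in 14.2% of all, whereas the serum response motif CArG (1.64% of all) and TATAAA (14.2% of all) occurred in none of the 7. Casq1, which was not higher after PAN, held as many CANNTG matches as Synpo2l, 3 each. Actn3, which was not higher either, was the only one of the 7 without a match. These matches describe letters in a window and no binding was measured.

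Of the sarcomere and Z-disc genes, Synpo2l (ENSRNOG00000008949), which encodes a Z-disc protein of the synaptopodin family, had the largest difference of the 8. Its level was 2.07, 0.927, 0.664 and 1.14 CPM in the 4 controls, which rest on 32, 18, 10 and 20 reads. In the PAN rats it was 92.6, 154, 168 and 148 CPM. With pioglitazone it was 21.7, 87.6, 59.9 and 108 CPM, and with GQ-16 it was 24.3, 26.9, 82.4 and 275 CPM. All 12 PAN-injected rats were above every control, and both drug groups overlapped the PAN group. The mean was 1.20 ± 0.61 CPM in control and 140 ± 33.0 in PAN (SD, n = 4 each), a ratio of means of 117. The difference in log2(CPM + 1) was 6.01 (SE 0.61), and it was 5.80 with median-ratio scaling, 5.05 with the library number as a covariate and 5.01 with a podocyte marker score as a covariate.

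Myom2 (ENSRNOG00000011754) encodes myomesin 2, which cross-links myosin filaments at the M-band. Its control levels were 15.9, 1.33, 0.791 and 4.94 CPM, and its PAN levels were 113, 175, 94.4 and 143 CPM. Pioglitazone-treated rats had 15.7, 56.0, 39.0 and 146 CPM, and GQ-16-treated rats had 28.8, 17.9, 61.3 and 152 CPM. Control replicate 1 was the highest control and lay just above the lowest pioglitazone rat, while all 4 GQ-16 rats were above every control. The ratio of means between PAN and control was 22.9, and the log2 difference of 4.83 (SE 0.74) was 3.80 with the library number and 3.16 with the podocyte score as a covariate.

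Myoz1 (ENSRNOG00000040122) encodes myozenin 1 (calsarcin 2), which binds alpha-actinin and calcineurin at the Z-disc. Its levels were 8.17, 1.33, 1.61 and 3.32 CPM in control and 34.0, 35.7, 34.7 and 34.3 CPM in PAN. With pioglitazone they were 4.07, 19.5, 16.9 and 36.4 CPM, and with GQ-16 they were 10.9, 13.8, 26.9 and 33.1 CPM. The PAN rats lay within a narrow band (34.7 ± 0.711 CPM, SD, n = 4). All GQ-16 rats were below that band, whereas the pioglitazone rats spread from within the control range to above it. The ratio of PAN to control means was 9.61, and the log2 difference was 3.18 (SE 0.52), or 2.05 with the podocyte score as a covariate.

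Actn3 (ENSRNOG00000019745), the alpha-actinin of fast muscle fibres, was low in every group. It was 2.64, 3.23, 1.93 and 2.87 CPM in control and 2.04, 2.73, 2.42 and 2.74 CPM in PAN. The drug groups ranged from 1.92 to 4.21 CPM, on 27 to 92 reads a library. All groups overlapped, and the log2 difference between PAN and control was -0.07 (95% interval -0.44 to 0.31), with -0.29 under median-ratio scaling, which shifted the median of all genes from 0.28 to near 0.

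**Figure D1:**
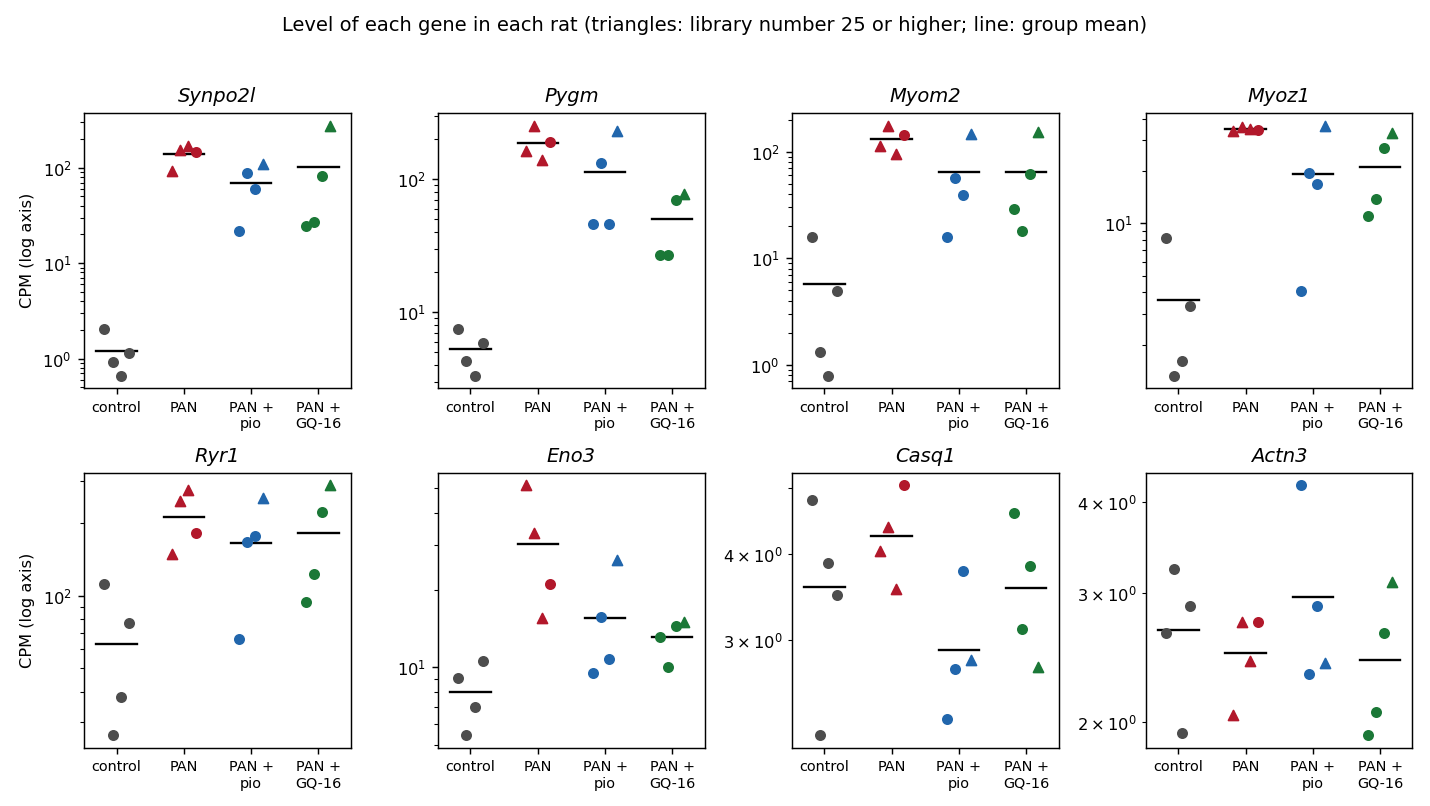
CPM of each of the 8 genes in each rat (log axis), in control, PAN, PAN with pioglitazone (pio) and PAN with GQ-16, with lines at group means and triangles for library numbers of 25 or higher. The first 6 genes sit higher in all PAN rats than in all controls, whereas Casq1 and Actn3 overlap across groups.

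Of the calcium release genes, Ryr1 (ENSRNOG00000020557), the release channel of the sarcoplasmic reticulum, was already present in healthy glomeruli. Its control levels were 112, 26.3, 37.9 and 77.0 CPM, and its PAN levels were 150, 248, 275 and 182 CPM. With pioglitazone it was 66.0, 167, 177 and 256 CPM, and with GQ-16 it was 94.3, 123, 224 and 288 CPM. PAN rats were above every control, and each drug group overlapped both PAN and control. The ratio of PAN to control means was 3.38. The log2 difference of 1.92 (SE 0.47) was 1.62 with median-ratio scaling, 1.33 with the library number and 0.95 with the podocyte score as a covariate.

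Casq1 (ENSRNOG00000006930) encodes calsequestrin 1, the calcium store protein that lies beside the channel in skeletal muscle. It was 4.80, 2.18, 3.89 and 3.49 CPM in control and 4.05, 4.38, 3.56 and 5.04 CPM in PAN. Both drug groups lay between 2.30 and 4.59 CPM, and all groups overlapped. The log2 difference between PAN and control was 0.22 (95% interval -0.18 to 0.63) and -0.01 with median-ratio scaling, so its sign depended on the scaling.

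Of the energy genes, Pygm (ENSRNOG00000021090), the muscle glycogen phosphorylase that releases glucose from glycogen, was low in control at 7.47, 4.28, 3.32 and 5.83 CPM. In PAN it was 164, 253, 139 and 191 CPM. It was 46.4, 133, 45.7 and 232 CPM with pioglitazone and 26.7, 27.1, 70.1 and 77.1 CPM with GQ-16. Every PAN-injected rat was above every control, and every GQ-16 rat was below every PAN rat, while pioglitazone rats overlapped both. The ratio of PAN to control means was 35.7 (log2 difference 4.93, SE 0.47), and that of GQ-16 to PAN means was 0.269 (log2 difference -2.01, SE 0.47). The latter was -2.01 with the podocyte score and -1.55 with the library number as a covariate, and -2.27 to -1.77 when each rat was left out in turn.

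Eno3 (ENSRNOG00000004078) encodes beta-enolase, the muscle form of a glycolytic enzyme, and had 9.13, 5.44, 6.99 and 10.6 CPM in control. In PAN it was 51.3, 33.5, 15.5 and 21.1 CPM, the widest spread among PAN rats relative to the mean of the 6 genes that were higher. It was 9.53, 15.7, 10.8 and 26.2 CPM with pioglitazone, and 13.1, 10.1, 14.5 and 15.1 CPM with GQ-16. All GQ-16 rats were below the lowest PAN rat, by a margin of 15.1 against 15.5 CPM at the closest. The ratio of PAN to control means was 3.77, and the log2 difference was 1.69 (SE 0.33). RefSeq places Eno3 over part of Spag7 and lists non-coding genes that overlap Pygm, Ryr1 and Myom2. The kit marks strand, but the strand setting of the counting is not given in the sources used here, so reads of such pairs could be split or merged.

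Across the 8 genes, 6 did not overlap between PAN and control, all higher in PAN, and 22.4% of all genes were higher without overlap in that comparison. Since this contrast chose the members, nothing is read from the count. The median log2 difference of the members was 2.55, against 0.28 over all genes. GQ-16 rats lay below all PAN rats for 3 of 8 members (Myoz1, Pygm and Eno3), where 3.47% of all genes did. Pioglitazone rats did so for 0 of 8, where 2.36% of all genes did. The drug comparisons share the PAN libraries that helped to choose the members, so no test is given. The median member difference was -0.95 for pioglitazone minus PAN and -0.92 for GQ-16 minus PAN, against -0.09 and -0.11 over all genes. Pioglitazone rats lay above all controls for Synpo2l and Pygm (2 of 8 members, 13.1% of all genes), and GQ-16 rats did for Synpo2l, Myom2, Myoz1 and Pygm (4 of 8, 4.92% of all genes). These counts reuse the controls that helped to choose the members, and nothing is read from them.

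In both drug groups, the rat with a library number of 25 or higher had the highest level of each of the 6 genes. The same rats had the highest podocyte marker sums of their groups (11684 CPM with pioglitazone, 14031 with GQ-16). They also had the lowest mitochondrial shares (8.77% and 6.76%), so the library number cannot be told apart from these features here. Among libraries numbered 15 or lower there was 1 PAN rat, so no spread can be given within them. That rat had 148 CPM of Synpo2l, against 0.664 to 2.07 in the 4 controls, 21.7 to 87.6 in 3 pioglitazone rats and 24.3 to 82.4 in 3 GQ-16 rats. It likewise exceeded the controls and the 6 drug-treated rats in this range for Myom2, Myoz1, Pygm and Eno3. For Ryr1, GQ-16 replicate 3 was higher (224 against 182 CPM). With the library number as a covariate, the differences from PAN were smaller in size for all 6 genes in both drug groups. For pioglitazone, Synpo2l went from -1.19 to -0.55, Myom2 from -1.41 to -0.72, Myoz1 from -1.14 to -0.70 and Ryr1 from -0.47 to -0.08. For GQ-16, Synpo2l went from -1.12 to -0.48, Myom2 from -1.42 to -0.73 and Myoz1 from -0.82 to -0.38, and Ryr1 turned from -0.32 to 0.06.

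**Figure D2:**
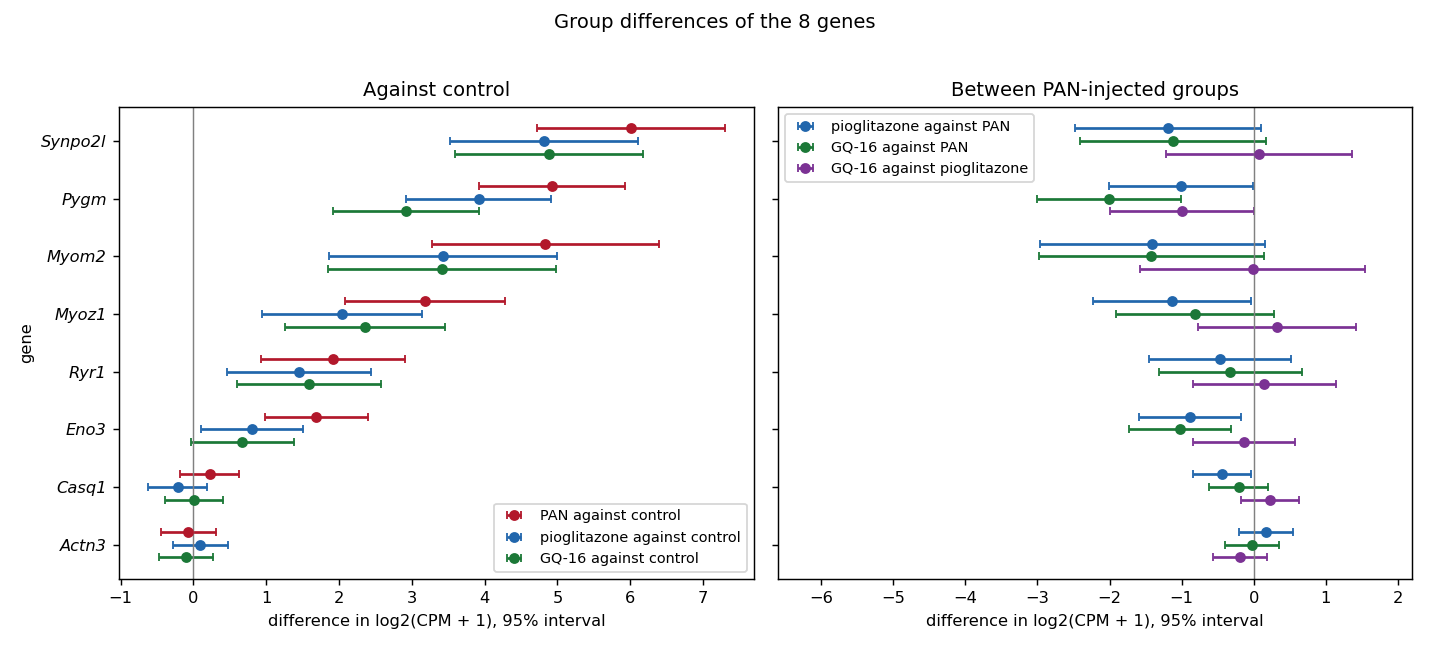
Differences in log2(CPM + 1) of the 8 genes with 95% intervals from the fit across all genes, against control on the left and among PAN-injected groups on the right. Intervals in comparisons with PAN or control are descriptive and no test, since those groups helped to choose the members. The PAN values run from -0.07 for Actn3 to 6.01 for Synpo2l, and the GQ-16 minus pioglitazone intervals include 0 for all genes except Pygm, whose upper end is at -0.000539.

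The direct comparison of both agonists did not enter the choice of the members and was tested for all 8, with p-values adjusted over all 13222 genes by limma and Benjamini-Hochberg. Doses are not given in the sources used here, so they may not match. With limma, 0 of 8 members and 0% of all genes passed an adjusted p of 0.05, while 1 of 8 members (Pygm) and 786 of all genes had an unadjusted p under 0.05. The voom fit also called 0 of 8. Pygm was 50.2 ± 27.1 CPM with GQ-16 and 114 ± 88.6 with pioglitazone (SD, n = 4 each). Its log2 difference was -0.999, with a 95% interval of -1.998 to -0.000539, and the groups overlapped. The unadjusted limma p was 0.0499 and the adjusted p was 0.839. Leaving out 1 rat at a time gave -1.32 to -0.55, the latter without pioglitazone replicate 4. Synpo2l differed by 0.07 with an interval from -1.22 to 1.36, and Myom2 by -0.02 with an interval from -1.58 to 1.55. Myoz1 differed by 0.32 (-0.78 to 1.42), Ryr1 by 0.15 (-0.84 to 1.13) and Eno3 by -0.13 (-0.84 to 0.57). Casq1 and Actn3 differed by 0.23 (-0.18 to 0.63) and -0.19 (-0.57 to 0.18). These intervals leave room for differences of more than 1 log2 unit in either direction for Synpo2l and Myom2, upward for Myoz1 and Ryr1 and downward for Pygm.

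The members were then set against the podocyte markers of the same library, since control libraries varied widely in those. Per 1000 CPM of the 11 markers, Synpo2l was 0.231, 0.423, 0.302 and 0.267 CPM in control and 8.85, 16.5, 20.5 and 21.2 CPM in PAN, a ratio of means of 54.9. Myom2 (15.9), Pygm (15.4) and Myoz1 (5.37) were also higher in PAN without overlap on this measure. Ryr1 (12.0 to 17.9 in control, 14.3 to 33.6 in PAN) and Eno3 (1.02 to 3.17 and 1.90 to 4.90) overlapped, with ratios of means of 1.69 and 1.47. Of all genes, 1.29% were higher without overlap on this measure, but the ratio reuses the values that chose the members, so nothing is read from the count. Casq1 and Actn3 overlapped with ratios of 0.490 and 0.355.

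Relative to podocyte markers, Pygm was 15.6, 27.1, 17.0 and 27.4 CPM in PAN and 3.44, 6.75, 6.22 and 5.50 CPM with GQ-16, again without overlap (0.688% of all genes were lower without overlap). Myoz1 was 1.02 to 3.11 with pioglitazone, below the 3.25 to 4.92 of PAN (0.416% of all genes), but overlapped PAN with GQ-16 (1.41 to 3.45). Eno3 no longer separated GQ-16 (1.08 to 2.51) from PAN. These comparisons reuse the PAN libraries whose high values helped to choose the members, so nothing is read from the shares beside them. On this measure Synpo2l, Myom2, Myoz1 and Pygm were above all controls in both drug groups as well (4 of 8 members, where 0.446% of all genes were with pioglitazone and 0.492% with GQ-16), a count that reuses the controls whose low values chose the members and from which nothing is read. For Myom2 and Myoz1 the pioglitazone rats had overlapped the controls in plain CPM.

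**Figure D3:**
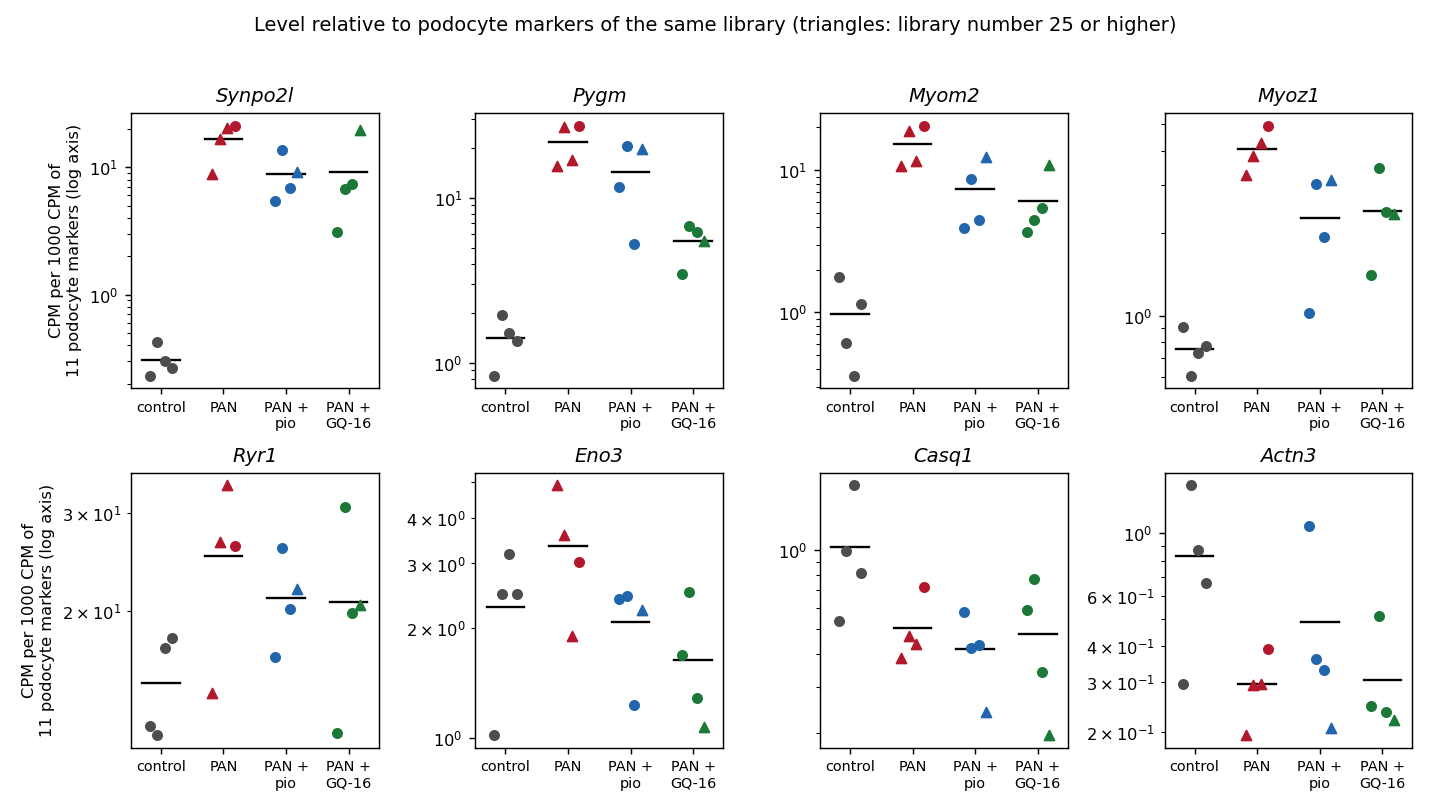
CPM of each gene per 1000 CPM of 11 podocyte markers of the same library (log axis), by group, with lines at group means and triangles for library numbers of 25 or higher. Synpo2l, Pygm, Myom2 and Myoz1 keep PAN above control without overlap, whereas Ryr1 and Eno3 overlap.

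Rats of a group differed together in these genes. After the group means were subtracted, Pearson's r of log2(CPM + 1) over the 16 libraries was 0.31 to 0.93 among the 15 pairs of the 6 higher genes, with a median of 0.80. The 13 pairs with Casq1 or Actn3 had r from -0.41 to 0.31, with a median of -0.01. The mean of the podocyte markers had r of 0.92 with Myom2, 0.88 with Myoz1, 0.85 with Ryr1, 0.67 with Synpo2l, 0.64 with Pygm and 0.58 with Eno3, against 0.43 with Casq1 and -0.04 with Actn3. The points share library depth and cell makeup, and no test is attached to them. The closest pair was Myoz1 and Ryr1, and the adjacent genes Synpo2l and Myoz1 had an r of 0.80.

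**Figure D4:**
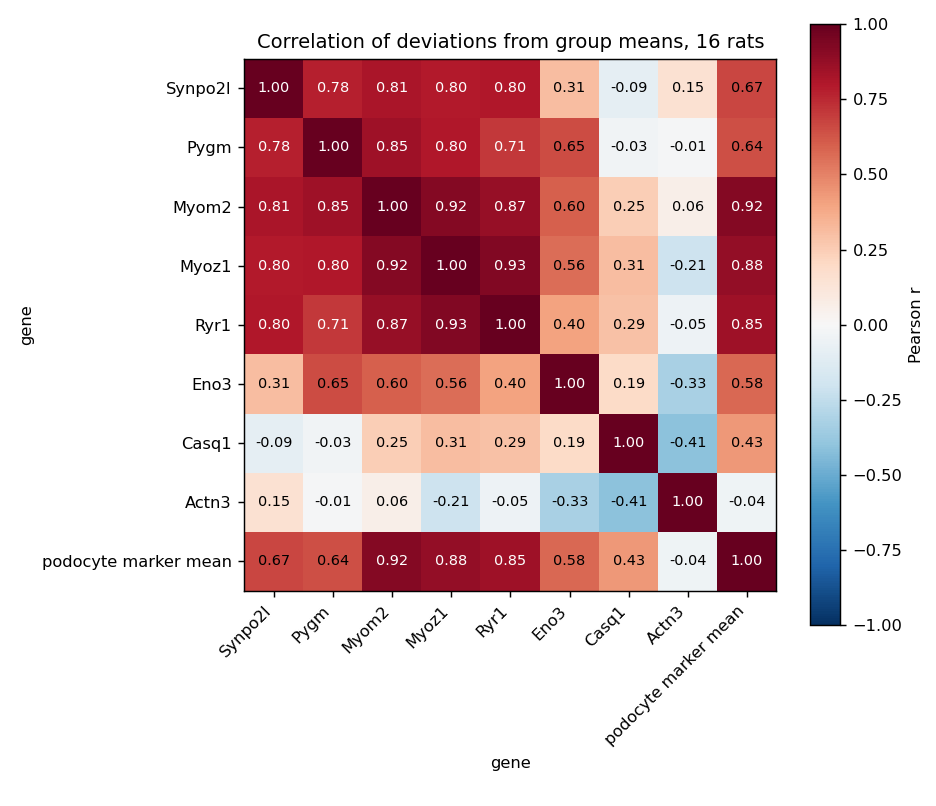
Pearson's r between deviations from group means of log2(CPM + 1), for the 8 genes and the mean of 11 podocyte markers over 16 libraries. Myom2, Myoz1 and Ryr1 form the reddest block with the podocyte mean (0.85 to 0.93), and the rows of Casq1 and Actn3 are pale.

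Over the plain values of the 16 libraries, the 10 other genes most like the mean of the 8 members were Ptprv, Uxs1, Gyg1, Des, Ccdc80, Rnf10, Mxra8, Hjv, Ccnd3 and Igfbp7. Their r ran from 0.978 for Ptprv to 0.966 for Igfbp7. Des encodes desmin, the intermediate filament of muscle, and was 85.6 ± 51.9 CPM in control and 725 ± 167 in PAN (SD, n = 4 each). These genes were picked for a pattern like that of members chosen for their rise in PAN, so their difference between PAN and control is a description. Hjv, which encodes hemojuvelin, an iron regulatory co-receptor also made in skeletal muscle, had a mean of 31.9 CPM in control and 370 in PAN. After group means were subtracted, the 10 were Rnf10, Cdkl2, Ptprs, Slc9a9, Mocs1, Hjv, Chst2, Ptprv, Cdr2l and Gyg1, with r from 0.957 to 0.947. Rnf10, Hjv, Ptprv and Gyg1 were in both sets of 10.

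A wider list of 135 striated muscle genes was examined, of which 34 had a row. In PAN against control 8 rose and 0 fell (limma, adjusted p under 0.05), or 23.5% of the 34, which is near the 21.7% of all genes called higher in that comparison. With median-ratio scaling or either covariate, the share of the list stood further above that of all genes, on 3 to 5 genes. The median difference of the list was 0.24, against 0.28 over all genes, and 0.025 against -0.0032 with median-ratio scaling. By role, 3 of 7 Z-disc and M-band genes, 1 of 2 excitation and calcium genes, 3 of 13 energy and turnover genes, 1 of 7 regulators and 0 of 5 thick and thin filament genes rose. Ldb3, which encodes the Z-disc protein cypher, rose from 1.80 ± 0.512 to 31.2 ± 12.2 CPM (log2 difference 3.46, adjusted p = 4.32e-05). Itgb1bp2 (melusin, a muscle protein that binds integrin) rose by 2.16 and Cryab (alpha-B crystallin, a chaperone that binds desmin) by 1.97. Itgb1bp2 was 0.158 to 1.09 CPM in control, below 2 CPM in all 4 rats, so it is listed through the PAN-injected groups. The 8 of 34 therefore depends in part on which genes were high enough after PAN to be listed, as does the share of all genes. Myoz3 (myozenin 3) rose by 1.90, Chrnb1 (an acetylcholine receptor subunit of the neuromuscular junction) by 1.48 and Ppp1r3c (which targets a phosphatase to glycogen) by 1.36.

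Srf (serum response factor, 0.61) and Phka1 (a subunit of phosphorylase kinase, which activates Pygm, 0.46) were the smallest of the calls, and both lost them with median-ratio scaling (adjusted p = 0.152 and 0.283). So did Myoz3 (0.0699), which left 5 of 34 higher (14.7%), where 7.12% of all genes were called higher. With the podocyte score as a covariate 5 of 34 were higher (14.7%), against 5.34% of all genes. With the library number as a covariate, only Ldb3, Itgb1bp2 and Ppp1r3c of the 8 stayed below 0.05 (8.8% of the 34), where 2.88% of all genes were called higher. Without control replicate 2 or 3 the count fell to 4, and without control replicate 1, the control with the most podocyte marker RNA, it was 14. In the other comparisons, Ldb3 (2.22), Ppp1r3c (1.14) and Itgb1bp2 (1.01) were higher with pioglitazone than in control (3 of 34; 4.7% of all genes), and Ldb3 (1.65, adjusted p = 0.0419) with GQ-16 (1 of 34; 0.151%). Itgb1bp2 lost its pioglitazone call with median-ratio scaling (adjusted p = 0.0682), with the podocyte score (0.0857) and with voom (0.0869), and with the podocyte score Cryab was called (0.0152). The GQ-16 call of Ldb3 ended with the podocyte score (1.21, adjusted p = 0.201), with voom (0.0784) and in the fit of only both groups (0.0621). In the fit without a covariate, none of the 34 was called in pioglitazone or GQ-16 against PAN or between the drugs (0%, 0.0151% and 0% of all genes) by limma or by voom; at an unadjusted p under 0.05 there were 3 of 34 in each of these comparisons, against 495, 1094 and 786 of all 13222 genes. Ldb3 came nearest, at 8.38 ± 4.16 CPM with GQ-16 (log2 difference from PAN -1.81, adjusted p = 0.0573), and it was called lower in GQ-16 than in PAN with the podocyte score as a covariate (-1.82, adjusted p = 0.00629).

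**Figure D5:**
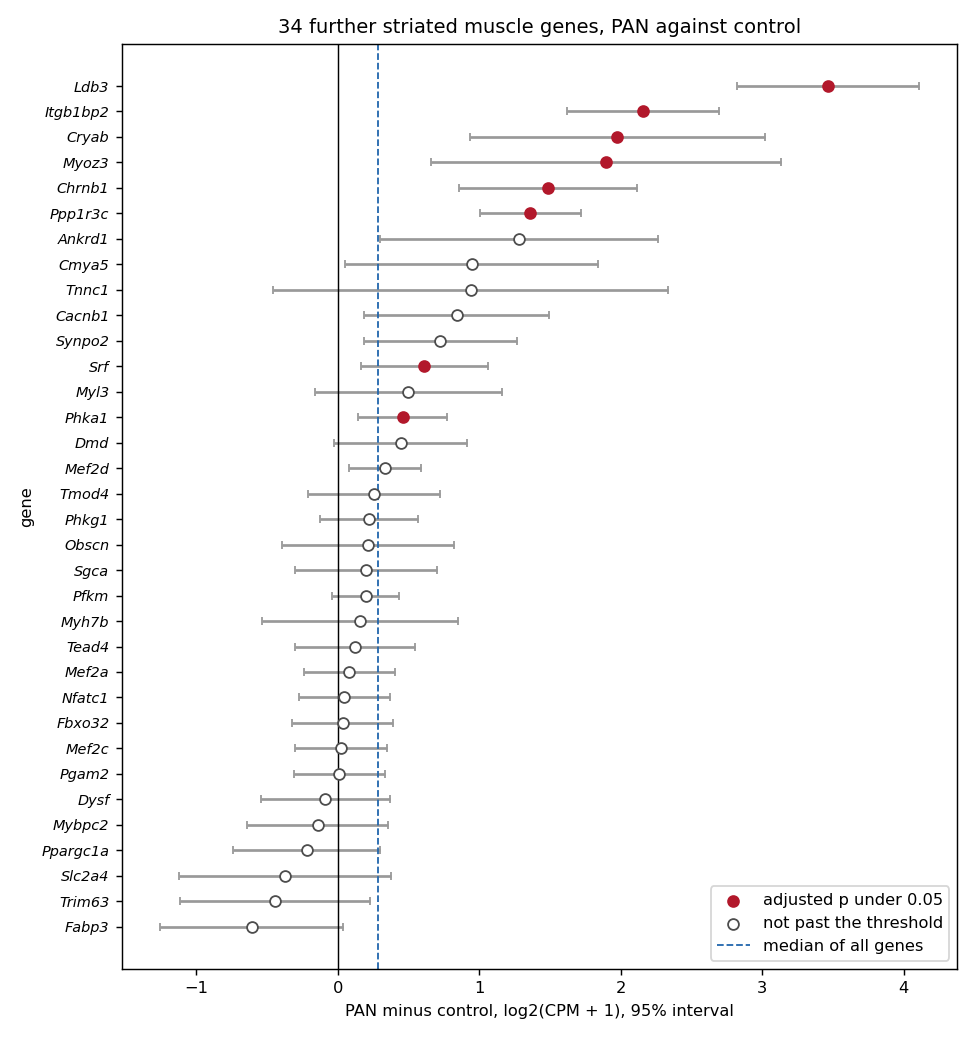
PAN minus control difference in log2(CPM + 1), with 95% intervals, for the 34 further striated muscle genes with a row; filled points passed an adjusted p of 0.05. The 8 filled points include Ldb3 at 3.46, and most open points sit near the dashed median of all genes at 0.28.

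Of 17 paralogs of the members, 9 had a row. Actn1 (1.63, adjusted p = 0.0136) and Actn4 (1.12, adjusted p = 0.0222), the non-muscle alpha-actinins, rose with PAN, as did Myoz3 (1.90) and Pygb (0.39, adjusted p = 0.0418), the brain form of glycogen phosphorylase. Actn4, which cross-links podocyte actin, went from 1000 ± 415 to 2056 ± 184 CPM, whereas Actn3 had means of 2.67 and 2.48 CPM. Synpo, the podocyte synaptopodin, had a difference of 1.56 (adjusted p = 0.0736) and Synpo2 one of 0.72, both short of the threshold. The liver phosphorylase Pygl (0.23) and the enolases Eno1 (-0.10) and Eno2 (0.38) did not pass either. No paralog of Myom2, Ryr1 or Casq1 had a row. The 4 of 9 called higher, where 21.7% of all genes were, became 2 with median-ratio scaling (7.12% of all genes), 1 with the podocyte score (5.34%) and 0 with the library number as a covariate (2.88%). Pygb lost its call with median-ratio scaling (0.09, adjusted p = 0.574) and with the podocyte score (adjusted p = 0.302).

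Among 52 partner genes (actin partners of synaptopodin, calcineurin, calcium release, glycogen and glycolysis), 48 had a row, and 9 rose and 0 fell with PAN, or 18.8%, against 21.7% of all genes called higher. They were Actn1 and Actn4, Zyx (zyxin, 0.78), Rcan2 (a calcineurin regulator, 0.92), Stim1 (a calcium sensor of the reticulum, 0.93), Gyg1 (glycogenin, the primer of glycogen, 0.995), Hk2 (hexokinase 2, 0.89), Pkm (0.81) and Ldha (0.45). With median-ratio scaling 4 were higher (8.3%, against 7.12% of all genes) and 1 was lower, with the podocyte score 3 were higher (6.2%, against 5.34%) and with the library number as a covariate 1 was higher (2.1%, against 2.88%).

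None of 12 defining markers of skeletal muscle fibres, among them Acta1, Ckm and Mylpf, had a row in the table analysed here, and neither did any of 5 markers of myogenic cells. These missing rows do not show that such RNA was absent. Genes with a row have 2 CPM or more in 8 or more libraries, so a marker present only in the 4 PAN rats could be missing. Of 10 cardiac markers Myl3 alone had a row, with 0.917 to 3.85 CPM in control and 2.56 to 4.00 in PAN, and was not called. Smooth muscle and mesangial markers rose for 8 of 9 with a row, where 21.7% of all genes were called higher, and their sum was 427 to 937 CPM in control, 1812 to 2990 in PAN, 1350 to 1862 with pioglitazone and 881 to 1575 with GQ-16. This sum includes Des, with a mean of 85.6 CPM in control and 725 in PAN. Bulk RNA does not show which cells made it. Of 11 podocyte markers 3 rose, and 9 of the 11 had an unadjusted p under 0.05, with a median log2 difference of 1.43 against 0.28 over all genes. Of 8 endothelial and 8 proximal tubule markers 0 rose, and 0 had an unadjusted p under 0.05, whereas 5562 of the 13222 genes did. Leukocyte markers rose for 3 of 7, fibroblast markers for 1 of 3 and parietal cell markers for 1 of 5, and 3 of 8 distal tubule markers fell, where 0.522% of all genes were called lower. Over all 60 markers with a row, the 16 higher and 3 lower became 8 and 2 with median-ratio scaling, 4 and 0 with the library number and 9 and 1 with the podocyte score as a covariate. The part of these cell types in the members' levels was not tested beyond the ratios and covariate above.

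The 8 genes lie at 7 places, since RefSeq lists Synpo2l and Myoz1 next to each other. The nearest genes around that pair, Sec24c (0.34, adjusted p = 0.0815), Usp54 (0.24, adjusted p = 0.240), Fut11 (0.25) and Ppp3cb (0.33), did not pass in PAN against control. Of 24 neighbours with a row, taken as the nearest 2 on each side of each member, 5 rose and 0 fell (20.8%, against 21.7% of all genes called higher). These were Rasgrp2 (1.11) and Nrxn2 (1.22) beside Pygm, Pfn1 (0.62) beside Eno3, Pea15 (1.35) beside Casq1 and Angpt2 (1.35) beside Myom2. Pea15 rose next to Casq1, which overlapped between the groups.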

How the data were processed

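Glomerular RNA of 16 rats in 4 groups was analysed. Per the labels' protocols, libraries were made with a strand-marking kit after poly(A) selection. Per the submitters' processing notes, HISAT2, featureCounts, Subread and limma were used with Rnor_6.0; parameters are not given in the sources used here. The authors deposited log2 CPM values. They matched whole reads (0.5 added to each gene, 1 to each total) for 100% of values within 0.01 read; the files give these totals as 13351137 to 21977663, and at the lowest total 3 reads are 0.2247 CPM.

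Values were converted to CPM and tested as log2(CPM + 1), which understates changes of low genes, with limma 3.58.1 in R 4.3.3 (4 group means, trended variance) and Benjamini-Hochberg adjustment over 13222 genes at 0.05. On simulated data for PAN against control (13222 genes), 76 of 100 genes changed 2-fold and 100 of 100 changed 4-fold were recovered. The simulated libraries shared a common profile and a fixed spread, without the differences in cell makeup between real libraries. These shares therefore do not give the recovery in the real data. Podocyte score means the mean of log2(CPM + 1) over 11 markers. Group levels are mean ± SD. The nearest pair of replicates differed by far more than counting noise (chi-square per gene at least 13.3), so every library counted once.

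The members and gene lists were chosen with earlier results of these data known. Named genes are the 8 members, their paralogs, and listed muscle genes and partners called in PAN against control. The 10 genes most correlated with the members' mean are named as well. Others (neighbours of the members, markers, Zyx, Pkm and Ldha) were named after their values were seen. Median-ratio scaling, a pseudocount of 0.1, a mean of at least 10 CPM, a fit of only the groups compared, a library number covariate and leaving out each rat were tried. A podocyte score covariate and voom on recovered reads were added after seeing the data. Sequences come from RefSeq (GRCr8).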

Additional observations from a re-analysis of the deposited data

How the results depend on the processing

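No paired analysis was possible because replicate numbers only follow accession order and pair no rats. The planned count tests in other tools were not run on the recovered reads, and voom was run in their place. The 8 muscle genes called in PAN against control became 3 with the library number covariate, 4 with a mean of at least 10 CPM (fewer genes tested), 5 with median-ratio scaling, 5 with the podocyte score and 5 with voom, and 4 to 14 when a rat was left out. GQ-16 against PAN went from 0 to 1 (Ldb3) with the podocyte score and was 0 to 1 when a rat was left out. Pioglitazone against control went from 3 to 1 at 10 CPM or more, and was 2 to 7 without a rat (7 without control replicate 1). GQ-16 against control went from 1 to 2 with median-ratio scaling and to 0 in the fit of only 2 groups, with the podocyte score and with voom, and was 0 to 9 without a rat (9 without control replicate 1). No member was called between the drugs under any of these alternatives. For GQ-16 minus pioglitazone, signs turned for Synpo2l (-0.21 with the podocyte score, -0.64 to 0.51 without a rat), Myom2 (0.027 with median-ratio scaling, 0.047 with voom, -0.57 to 0.52 without a rat), Myoz1 (-0.24 to 0.72 without a rat), Ryr1 (-0.13 with the podocyte score, -0.24 to 0.41 without a rat) and Eno3 (-0.32 to 0.14 without a rat). Without a rat, Actn3 was -0.29 to -0.055. For PAN minus control, Eno1 turned to 0.34 with the library number covariate and was -0.31 to 0.057 without a rat, Eno2 turned to -0.047 with the podocyte score, and Pygl to -0.067 with median-ratio scaling, -0.29 with the podocyte score and -0.069 with voom. The cause was not tested. Low levels limit Casq1 and Actn3, with 27 to 92 reads a library.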
